A study of Mus musculus with 30 samples.

Results

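The protein parts of the mitochondrial ribosome are encoded in the nucleus, and 78 mouse genes carry the Mrpl and Mrps symbols used for them. They were chosen from the raw count table by symbol, Mrpl or Mrps followed by a number and at most 1 letter, and by a raw count of at least 10 in at least 7 of the 30 libraries. All 78 matching genes passed that count rule, out of 56980 genes in the table, and all were among the 16932 genes tested. The member nearest the limit was Mrpl53, with 10 or more reads in 29 of 30 libraries and a mean of 23.1 reads. The next lowest, Mrpl40, had a mean of 129 reads, and the highest, Mrpl12, a mean of 986 reads.

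The libraries were made from total RNA of the soleus, a postural hindlimb muscle, of C57BL/6J mice aged 3 to 4 months. The ambulatory control group (AMB Ctrl, 8 libraries, 5 female and 3 male) and the unloaded control group (HU Ctrl, 7 libraries, 3 female and 4 male) carried floxed alleles of both AMPKalpha1 and AMPKalpha2 and no Cre. The ambulatory knockout group (AMB mKO, 7 libraries, 2 female and 5 male) and the unloaded knockout group (HU mKO, 8 libraries, 5 female and 3 male) lacked both AMPKalpha subunits in skeletal muscle. The floxed alleles were thus shared by all groups, and the promoter that drove Cre is not named in the labels. Unloading was hindlimb unloading for 4 weeks, and ambulatory mice moved freely for the same 4 weeks. Replicates are separate samples of a group, and the labels do not tie any of them to a litter or cage, so p-values measure the spread between these libraries.

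Mitochondrial ribosomes sit in the mitochondrial matrix and translate the few mRNAs of mitochondrial DNA, all of which encode core subunits of the respiratory chain and ATP synthase. Their RNAs come from mitochondrial DNA, while every ribosomal protein is made in the cytosol and imported. The large subunit joins amino acids and the small subunit reads the mRNA, and each holds proteins with bacterial homologues beside proteins found only in mitochondria. AMPK is an energy-sensing kinase, and AMPKalpha1 and AMPKalpha2, its alternative catalytic subunits, are encoded by Prkaa1 and Prkaa2. By published subunit membership, 50 members belong to the large subunit (28 with a bacterial homologue and 22 specific to mitochondria) and 26 to the small subunit (16 and 10). Mrps18a and Mrps30 are proteins of the large subunit in spite of their symbols. Mrpl55 and Mrps36 were placed in neither list, so counts by subunit and class leave out both. For Mrpl55 this is a gap of the lists and not a statement about its subunit. Mrps36 is now known as a part of the oxoglutarate dehydrogenase complex.

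Total counts per library ran from about 12083400 to 20895300 reads. Prkaa2 was lower in mKO than in Ctrl muscle, by 1.89 ± 0.26 log2 units in ambulatory mice (SE, adjusted p = 0.000367, edgeR quasi-likelihood test with Benjamini-Hochberg adjustment) and by 1.64 ± 0.24 in unloaded mice (adjusted p = 0.00192). Prkaa1 did not pass, with -0.20 ± 0.18 and -0.60 ± 0.18. The ambulatory value includes AMB mKO replicate 2 at 36.2 CPM of Prkaa1. The other 6 AMB mKO libraries had 8.21 to 17.9 CPM, and AMB Ctrl 16.5 to 24.9 CPM. The Prkaa1 change without that library is not given here. The slow-fibre marker Myh7 was between 4310 and 18091 CPM (normalised read count scaled to a common library size) in 29 libraries and at 116 CPM in AMB mKO replicate 2. The fast-fibre myosins spread widely, with Myh1 from 469 to 40525 CPM and Myh4 from 13.8 to 18886 CPM. AMB Ctrl replicate 1 had 4658 CPM of Myh4, where the median of its group was 23.9. AMB mKO replicate 2 had a summed level of 10 adipocyte markers of 10474 CPM, against a median of 265 CPM in its group. Its Prkaa2 level was 15.0 CPM. HU mKO replicates 2 and 3 had the next highest adipocyte sums of all libraries, 2489 and 2615 CPM. Where leaving out AMB mKO replicate 2 moved the value of a named member by over 1.5 times or changed its call or sign, the value without that library is given too. This holds for the comparisons that include its group. For unloading in Ctrl muscle and genotype in unloaded muscle, values of single members without it are not given.

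In ambulatory control muscle the 78 transcripts together made up 2220 ± 258 CPM (SD, n = 8), from 1944 to 2683. The sum was 2069 ± 485 CPM in AMB mKO (n = 7), from 1116 in replicate 2 to 2496. It was 1721 ± 204 CPM in HU Ctrl (n = 7), from 1500 to 2125, and 1688 ± 247 CPM in HU mKO (n = 8), from 1229 in replicate 3 to 1926. All unloaded control libraries but replicate 1 lay below the lowest ambulatory control library, and replicate 1 lay inside the range of that group. Every HU mKO library lay below the lowest ambulatory control library, while AMB mKO replicate 2 was the lowest of all 30. The large subunit contributed 1553 ± 186 CPM and the small subunit 623 ± 69.2 CPM in AMB Ctrl, and 1186 ± 144 and 505 ± 55.9 CPM in HU Ctrl. In bulk tissue fewer cells of a kind and less RNA per cell cannot be told apart.

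**Figure D1:**
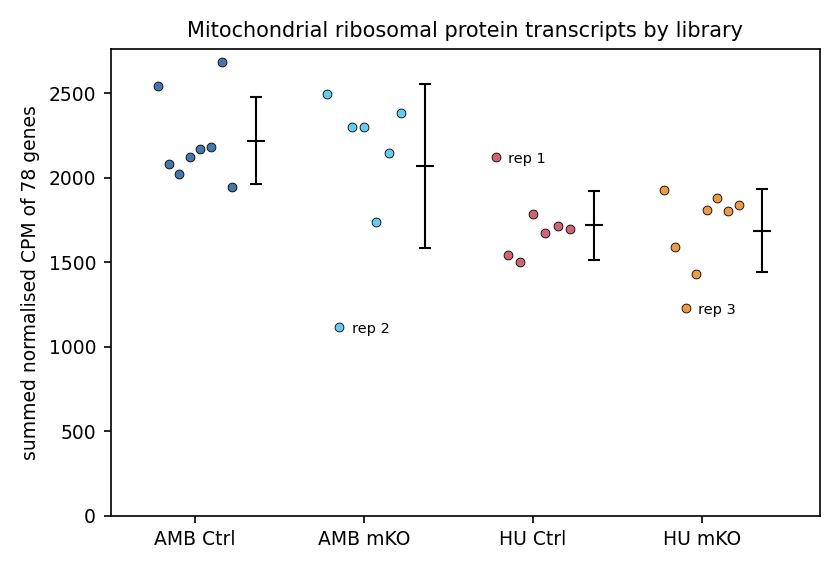
Summed normalised CPM of the 78 genes (y axis) in each library, by group (x axis). Each point is 1 library, and the bar beside each group is the mean ± SD. HU Ctrl and HU mKO have means of 1721 and 1688 CPM against 2220 and 2069 in the ambulatory groups, and AMB mKO replicate 2 is the lowest point at 1116.

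Compared per kilobase of exon, levels in AMB Ctrl spanned 2.11 to 58.1 CPM per kb with a median of 9.50. Mrpl14 was highest at 58.1 ± 12.9 CPM per kb (SD, n = 8), followed by Mrps21 at 54.6 ± 9.11 and Mrpl12 at 53.4 ± 11.5, and these 3 did not differ beyond their spread. Mrpl18 followed at 41.7 ± 12.3 CPM per kb. Mrpl32 (2.11 ± 0.460) and Mrpl53 (2.15 ± 0.426 CPM per kb) were lowest and lay within each other's spread. Exon lengths are from GENCODE M21, an older annotation than that of the build named for the counts.

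In control muscle, unloading lowered mitochondrial ribosomal protein transcripts. Of the 78 members 26 fell and none rose (33.3% called), where 11.1% of all genes tested were called, 5.74% lower and 5.37% higher. The change was negative in 74 of 78 members, with a median of -0.41 log2 units against 0.03 over all genes tested. No member was called higher by edgeR, DESeq2 or limma voom, and the 46 members with an unadjusted p under 0.05 all had negative changes. Of all 16932 genes tested 4467 had an unadjusted p under 0.05, in either direction. In 11 members every unloaded control library lay below every ambulatory control library, a pattern that 2.12% of all genes tested showed in that direction. Falls of called members ran from 0.32 to 1.12 log2 units. The count was 17 without HU Ctrl replicate 3 and 40 without AMB mKO replicate 2. The latter is in neither group compared and enters through what the fit shares: the sex term, scaling, filter and estimate of spread. Scaled by total counts it was 13, with a median of -0.28 in the members and 0.17 log2 units over all genes tested. The share of all genes called in these refits is not given here.

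The member with the smallest p was Mrpl36, a small zinc-binding protein of the large subunit. Its level was lowest 14.8, median 17.5 and highest 21.6 CPM in AMB Ctrl, and 8.12, 9.05 and 12.9 CPM in HU Ctrl. The groups did not overlap, and the highest unloaded library was replicate 1. Mrpl36 fell by 0.91 ± 0.16 log2 units (1.88-fold, adjusted p = 0.000725, edgeR). In the annotation its exons overlap Ndufs6, and the strand setting of the authors' counting is not given in the sources used here.

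Mrpl34, a small protein that binds the large-subunit RNA, had the largest fall. It stood at 14.1, 21.5 and 33.5 CPM (lowest, median, highest) in AMB Ctrl and at 8.64, 9.90 and 14.1 CPM in HU Ctrl, with no overlap, although the highest unloaded library reached almost to the lowest ambulatory one. The fall was 1.12 ± 0.22 log2 units (2.18-fold, adjusted p = 0.00131, edgeR). Mrpl4, a protein near the exit tunnel for the new peptide, went from 29.5, 38.2 and 40.7 CPM to 20.5, 23.9 and 27.6 CPM. Those groups did not overlap either, and Mrpl4 fell by 0.63 ± 0.12 log2 units (1.55-fold, adjusted p = 0.000928, edgeR).

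Among large-subunit proteins found only in mitochondria, Mrpl54 went from 15.9, 17.6 and 22.7 CPM in AMB Ctrl to 8.79, 10.5 and 13.0 CPM in HU Ctrl, again with no overlap. It fell by 0.81 ± 0.16 log2 units (1.76-fold, adjusted p = 0.0014, edgeR). Mrpl58 is a peptidyl-tRNA hydrolase built into the large subunit that is known for rescuing stalled ribosomes. It stood at 22.3, 26.7 and 39.7 CPM in AMB Ctrl and 17.3, 19.5 and 22.7 CPM in HU Ctrl. Here the ranges touched, with 6 of 7 unloaded libraries below all ambulatory ones, and the fall was 0.56 ± 0.13 log2 units (adjusted p = 0.00646). Mrpl46, of the central protuberance, fell by 0.61 ± 0.15 log2 units (adjusted p = 0.00669), with 5 of 7 unloaded libraries below all ambulatory ones.

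Fewer small-subunit members passed, 5 of 26 against 20 of 50 in the large subunit, with medians of -0.35 and -0.42 log2 units. That difference between subunits was not tested. Mrpl55, which also fell, is in neither count. Mrps12, a protein of the decoding centre, had 10.4, 14.2 and 15.8 CPM in AMB Ctrl and 8.06, 8.64 and 10.3 CPM in HU Ctrl. The highest unloaded library lay just under the lowest ambulatory library, and Mrps12 fell by 0.61 ± 0.14 log2 units (1.53-fold, adjusted p = 0.00415, edgeR). Mrps2 went from 13.1, 16.1 and 18.3 CPM to 9.15, 11.4 and 12.7 CPM without overlap, a fall of 0.52 ± 0.12 log2 units (1.43-fold, adjusted p = 0.00543). By class, 11 of 28 large-subunit proteins with a bacterial homologue fell, 9 of 22 specific to mitochondria, 4 of 16 in the small subunit with a bacterial homologue and 1 of 10 without.

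**Figure D2:**
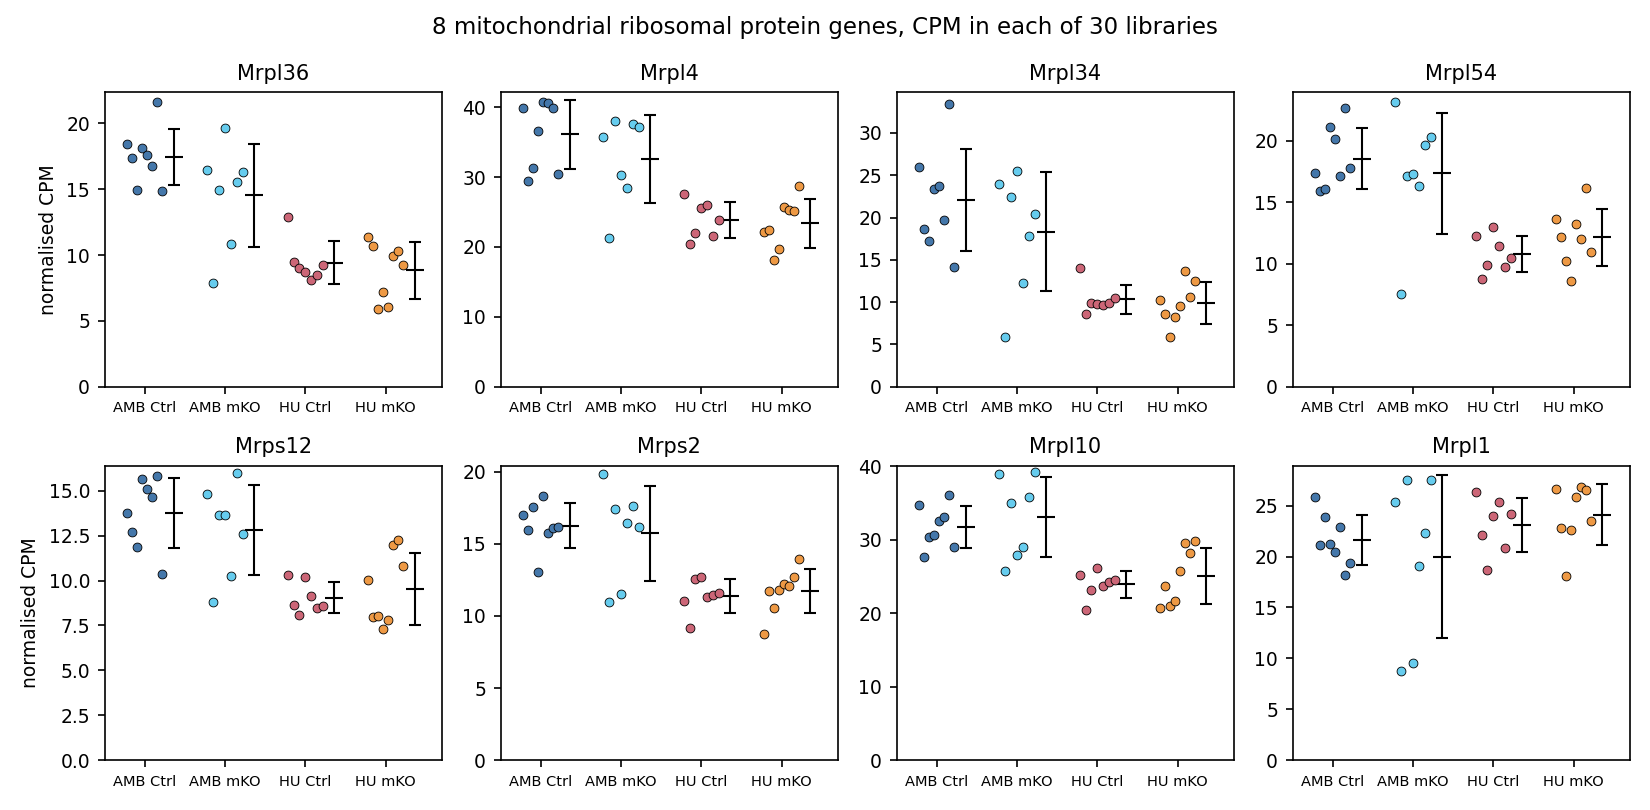
Normalised CPM (y axis, from 0) of 8 members in each of 30 libraries, by group (x axis), with mean ± SD beside each group. Mrpl36, Mrpl4, Mrpl34, Mrpl54, Mrps12, Mrps2 and Mrpl10 have no overlap between AMB Ctrl and HU Ctrl, while the Mrpl1 groups overlap.

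The stalk of the large subunit, which recruits translation factors, is built on Mrpl10 and Mrpl12. Mrpl10 went from 27.6, 31.5 and 36.1 CPM in AMB Ctrl to 20.4, 24.2 and 26.1 CPM in HU Ctrl with no overlap, a fall of 0.41 ± 0.10 log2 units (adjusted p = 0.0109, edgeR). Mrpl12 went from 57.9, 80.5 and 119 CPM to 39.8, 46.5 and 65.0 CPM, with 6 of 7 unloaded libraries below all ambulatory ones, and fell by 0.76 ± 0.19 log2 units (adjusted p = 0.0114). Mrpl11, at the base of the stalk, fell by 0.47 ± 0.15 log2 units (adjusted p = 0.0377).

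Mrpl44, Mrpl3 and Mrps22 are linked to inherited mitochondrial disease in people. Mrpl44 had 19.4, 22.9 and 25.4 CPM in AMB Ctrl and 12.0, 15.5 and 18.7 CPM in HU Ctrl, without overlap, and fell by 0.57 ± 0.16 log2 units (adjusted p = 0.0205). Mrpl3 fell by 0.42 ± 0.14 log2 units and was the member closest to the threshold (adjusted p = 0.0495). Mrps22 did not pass, at 0.04 ± 0.16 log2 units.

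The remaining called members were Mrpl18 (-0.90), Mrpl51 (-0.69), Mrpl43 (-0.68), Mrps28 (-0.66), Mrpl28 (-0.65), Mrpl19 (-0.63), Mrps16 (-0.58), Mrpl55 (-0.57), Mrpl39 (-0.49), Mrpl57 (-0.48), Mrpl21 (-0.44), Mrps35 (-0.33) and Mrpl49 (-0.32 log2 units). Mrpl18, in the central protuberance, went from 47.2, 52.0 and 97.9 CPM to 25.5, 30.3 and 46.1 CPM. The groups did not overlap, and the highest ambulatory level was that of replicate 7. Its exons overlap Tcp1 on the opposite strand.

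The members at the other end did not pass. Mrpl1, of the flexible stalk on the side where spent tRNA leaves, had 18.2, 21.2 and 25.8 CPM in AMB Ctrl and 18.7, 23.9 and 26.3 CPM in HU Ctrl, with broad overlap, and its change was 0.07 ± 0.18 log2 units. Mrps10 was at 0.06 ± 0.11 log2 units. The related proteins Mrps18a, Mrps18b and Mrps18c, of which the first belongs to the large subunit and the others to the small one, had changes of -0.42 ± 0.16, -0.14 ± 0.14 and 0.01 ± 0.13 log2 units, none of them called. Mrps18a passed in 2 of the fits that left out 1 library. Mrps6 had the largest change that did not pass, -0.68 ± 0.29 log2 units (adjusted p = 0.127). The changes of the 52 members not called ran from there up to Mrpl1.

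In mKO muscle 11 of 78 members fell with unloading and none rose (14.1% called), where 10.1% of all genes tested were called, 4.75% lower and 5.3% higher. The change was negative in 65 of 78 members, with a median of -0.24 log2 units against -0.04 over all genes tested. No member was called higher by edgeR, DESeq2 or limma voom, and the 30 members with an unadjusted p under 0.05 all had negative changes. Of all 16932 genes tested 4615 had an unadjusted p under 0.05, in either direction. In no member did every unloaded library lie below every ambulatory one, a pattern that 0.372% of all genes tested showed. The count rested on single libraries: without AMB mKO replicate 2 it was 32, and without HU mKO replicate 4 it was 2. It was also 17 without AMB Ctrl replicate 7, 5 without AMB mKO replicate 1, 5 without HU mKO replicate 1 and 7 without HU mKO replicate 5. The median was -0.14 log2 units without AMB mKO replicate 1. Fitted on the mKO libraries alone, no member was called and 22 had an unadjusted p under 0.05. The share of all genes called in these refits is not given here.

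Mrpl36 again had the smallest p. It stood at 7.87, 15.5 and 19.7 CPM in AMB mKO and 5.93, 9.61 and 11.4 CPM in HU mKO, where 5 of 7 ambulatory libraries lay above all unloaded ones. Its fall was 0.67 ± 0.17 log2 units (1.59-fold, adjusted p = 0.0124, edgeR). Mrpl19 went from 7.10, 18.4 and 24.9 CPM to 9.36, 11.3 and 15.6 CPM, with 6 of 7 ambulatory libraries above all unloaded ones and replicate 2 below them all. Mrpl19 fell by 0.65 ± 0.18 log2 units (adjusted p = 0.0196). Mrpl34 went from 5.88, 20.5 and 25.5 CPM to 5.88, 9.90 and 13.7 CPM and fell by 0.78 ± 0.22 log2 units (adjusted p = 0.0258).

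Of the stalk proteins, Mrpl10 fell here too, by 0.39 ± 0.11 log2 units (adjusted p = 0.0201), and Mrpl12 by 0.68 ± 0.20 (adjusted p = 0.0286). Mrpl11 stood at -0.34 ± 0.15 and did not pass (adjusted p = 0.15). Mrpl4 fell by 0.42 ± 0.12, Mrpl39 by 0.48 ± 0.13, Mrpl58 by 0.46 ± 0.14 and Mrpl46 by 0.48 ± 0.15 log2 units. In the small subunit, Mrps2 fell by 0.41 ± 0.12 and Mrps27, a protein with pentatricopeptide repeats, by 0.49 ± 0.15 log2 units (adjusted p = 0.0375). Mrps27 went from 12.0, 19.0 and 26.0 CPM to 9.41, 13.8 and 17.0 CPM, and in control muscle its change of -0.41 ± 0.15 log2 units did not pass (adjusted p = 0.0705).

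Mrps6 had the largest negative change in mKO muscle, -0.81 ± 0.29 log2 units, and did not pass (adjusted p = 0.0651). In the annotation its exons overlap 2 genes on the same strand, Gm49711 and Slc5a3, so strand may not separate their reads. Its level was 40.8 CPM in AMB mKO replicate 2 and at most 10.5 CPM in the other 6 AMB mKO libraries. Without that library the change of Mrps6 was -0.19 log2 units (adjusted p = 0.641), and among the members named here the most negative was Mrpl34 at -0.96. Mrpl1 (0.31 ± 0.18), Mrpl32 (0.21 ± 0.24) and Mrpl30 (0.17 ± 0.19 log2 units) had the largest positive values, and none passed. Without AMB mKO replicate 2 they were 0.15, 0.12 and 0.03. Mrpl44, Mrpl3 and Mrps22 stood at -0.45 ± 0.16, -0.22 ± 0.14 and 0.16 ± 0.17, and Mrps18a, Mrps18b and Mrps18c at -0.28 ± 0.16, -0.05 ± 0.15 and 0.12 ± 0.13 log2 units, none called. Without AMB mKO replicate 2, Mrpl44 (-0.62, adjusted p = 0.00104), Mrpl3 (-0.37, adjusted p = 0.00923) and Mrps18a (-0.43 log2 units, adjusted p = 0.021) passed, and Mrps18b was at -0.19.

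**Figure D3:**
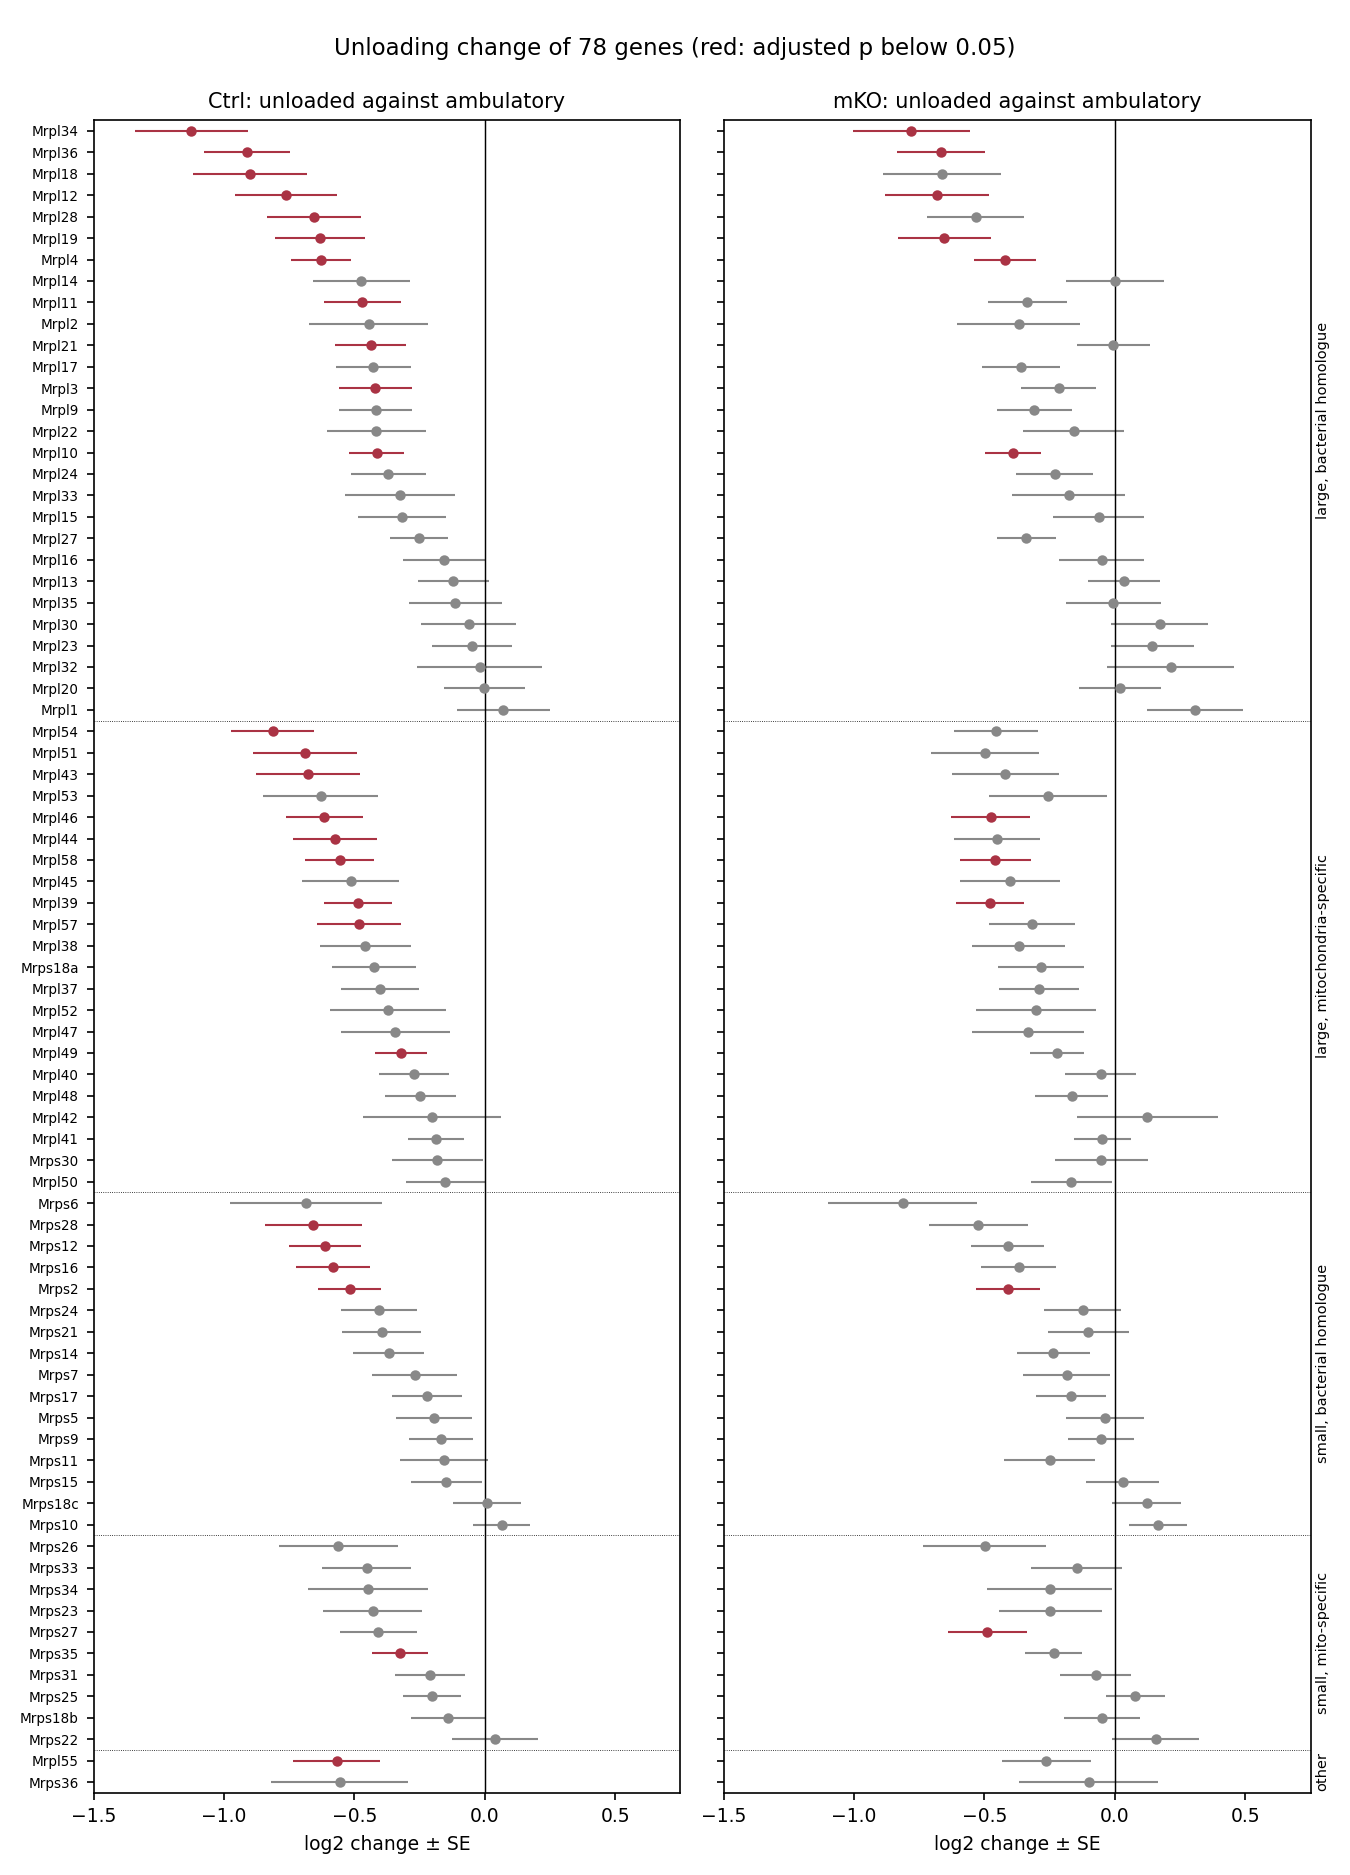
Log2 change with unloading ± SE (x axis) of each of the 78 genes (y axis), in Ctrl (left) and mKO (right) muscle, grouped by subunit and class and ordered by the Ctrl change. Red points passed the test, 26 on the left and 11 on the right, and all of them lie to the left of 0.

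Set side by side, 10 members were called in both genotypes, 38.5% of the 26 in Ctrl and 90.9% of the 11 in mKO, and 51 were called in neither. Across the 78 genes the unloading changes of the genotypes had a Pearson correlation of 0.877 and a Spearman correlation of 0.861. These describe genes within 1 fit that shares its spread estimate, and genes are not independent replicates. The value was higher, that is a smaller fall or a larger positive change, in mKO for 72 of 78 members. The direct test of that difference, the interaction of genotype and unloading, called no member, and no gene among all tested (0%). DESeq2 and limma voom also called none. In edgeR 410 of the 16932 genes tested had an unadjusted p under 0.05, among them 1 member.

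That member was Mrpl21, with a difference of 0.43 ± 0.20 log2 units (adjusted p = 0.999). Next were Mrpl14 (0.47 ± 0.27), Mrps25 (0.28 ± 0.16) and Mrpl54 (0.36 ± 0.23). After Mrpl14 the highest value was that of Mrps36 (0.46 ± 0.38), and the lowest were Mrps6 (-0.13 ± 0.41), Mrps11 (-0.09 ± 0.25) and Mrpl27 (-0.09 ± 0.16 log2 units). That order rested on AMB mKO replicate 2. Without it Mrpl14 was at 0.28, Mrps36 at 0.20 and Mrpl54 at 0.18, while Mrps11 was at -0.18, Mrpl27 at -0.14 and Mrps6 at 0.55 log2 units. The median of the interaction over the members was 0.14 log2 units, against -0.02 over all genes tested. Without AMB mKO replicate 2 it was 0.02, and without that library, AMB mKO replicate 4 and AMB Ctrl replicate 7 it was -0.03, with 32 members called in Ctrl and 34 in mKO. It was 0.02 with limma voom, 0.03 with total-count scaling and 0.06 with sex left out. It moved the other way without AMB mKO replicate 1, to 0.27 (6 members with an unadjusted p under 0.05), and with the title letter as a term, to 0.22 (4 members).

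Genotype alone moved no member past the test. In ambulatory muscle none of 78 was called, where 0.0177% of all genes tested were called (3 genes, 0.0118% higher and 0.00591% lower). DESeq2 and limma voom called none either. In edgeR 3 members had an unadjusted p under 0.05, as did 1291 of all 16932 genes tested. The difference mKO minus Ctrl was negative in 72 of 78 members, with a median of -0.12 log2 units. Over all genes tested 45.8% were negative, with a median of 0.02. All 74 nuclear genes of the respiratory chain and ATP synthase were negative too (median -0.32), as were all 13 mRNAs of mitochondrial DNA (median -0.42 log2 units). But without AMB mKO replicate 2 the difference was negative in 47 members, with a member median of -0.02. The median was 0.04 log2 units both with limma voom and without the 3 ambulatory libraries that stand apart, and -0.07 with sex left out. It was more negative without AMB mKO replicate 1, at -0.24 (75 members negative, 16 with an unadjusted p under 0.05), and with the title letter as a term, at -0.22 (76 negative, 15 with an unadjusted p under 0.05). The smallest p-values belonged to Mrps33 (-0.42 ± 0.18), Mrpl14 (-0.44 ± 0.19), Mrpl21 (-0.33 ± 0.14; adjusted p = 0.616 for all 3) and Mrps21 (-0.30 ± 0.16 log2 units). Mrpl14 stood at 39.5, 50.7 and 71.1 CPM in AMB Ctrl and 15.1, 48.7 and 58.3 CPM in AMB mKO, ranges that overlap broadly. Mrps36 was at -0.44 ± 0.27, and the positive end was held by Mrps6 (0.26 ± 0.28), Mrpl20 (0.09 ± 0.16) and Mrpl10 (0.05 ± 0.11 log2 units). Without AMB mKO replicate 2 the values were -0.27 for Mrpl14, -0.20 for Mrpl21, -0.18 for Mrps21, -0.22 for Mrps36, -0.31 for Mrps6, 0.11 for Mrpl10 and -1.85e-05 for Mrpl20.

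In unloaded muscle none of 78 members was called between genotypes, where 0.0177% of all genes tested were (0.0118% higher and 0.00591% lower). DESeq2 and limma voom called none. In edgeR no member had an unadjusted p under 0.05, where 301 of all 16932 genes tested did. The median was 0.01 log2 units, with 36 members negative, and over all genes tested it was 0.01 with 47.1% negative. Mrpl54 (0.21 ± 0.16), Mrpl53 (0.28 ± 0.22), Mrps11 (-0.17 ± 0.17) and Mrpl57 (0.16 ± 0.16 log2 units) had the smallest p-values. Mrpl43 (0.19 ± 0.20), Mrpl45 (-0.16 ± 0.19) and Mrpl12 (-0.13 ± 0.19 log2 units) completed the ends of the range. In all 78 members the genotype groups overlapped, both in ambulatory and in unloaded muscle. The share of all genes tested that overlapped in this way is not given here, so it is not a trait particular to the members.

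Some libraries held the lowest or highest level of many members. AMB mKO replicate 2 was the lowest of all 30 libraries in 40 members and HU mKO replicate 3 in 18, while AMB Ctrl replicate 7 was the highest in 22 and AMB Ctrl replicate 1 in 13. AMB mKO replicate 4 was the highest in 9 and the lowest in 4. The median coefficient of variation of a member was 15.5% in AMB Ctrl, 16.1% in HU Ctrl and 18.2% in HU mKO. In AMB mKO it was 28.6%, and 19.4% without replicate 2. AMB Ctrl replicate 7 and AMB mKO replicate 4 had profiles unlike the others. Mrpl52 stood at 41.4 and 52.9 CPM in these libraries and at 14.5 to 23.7 CPM in the other ambulatory libraries, and Mrpl42 at 42.3 and 16.6 CPM, where AMB mKO replicate 2 had 16.5 and the remaining ambulatory libraries 58.1 to 86.7 CPM. These genes were picked after their values were seen.

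**Figure D4:**
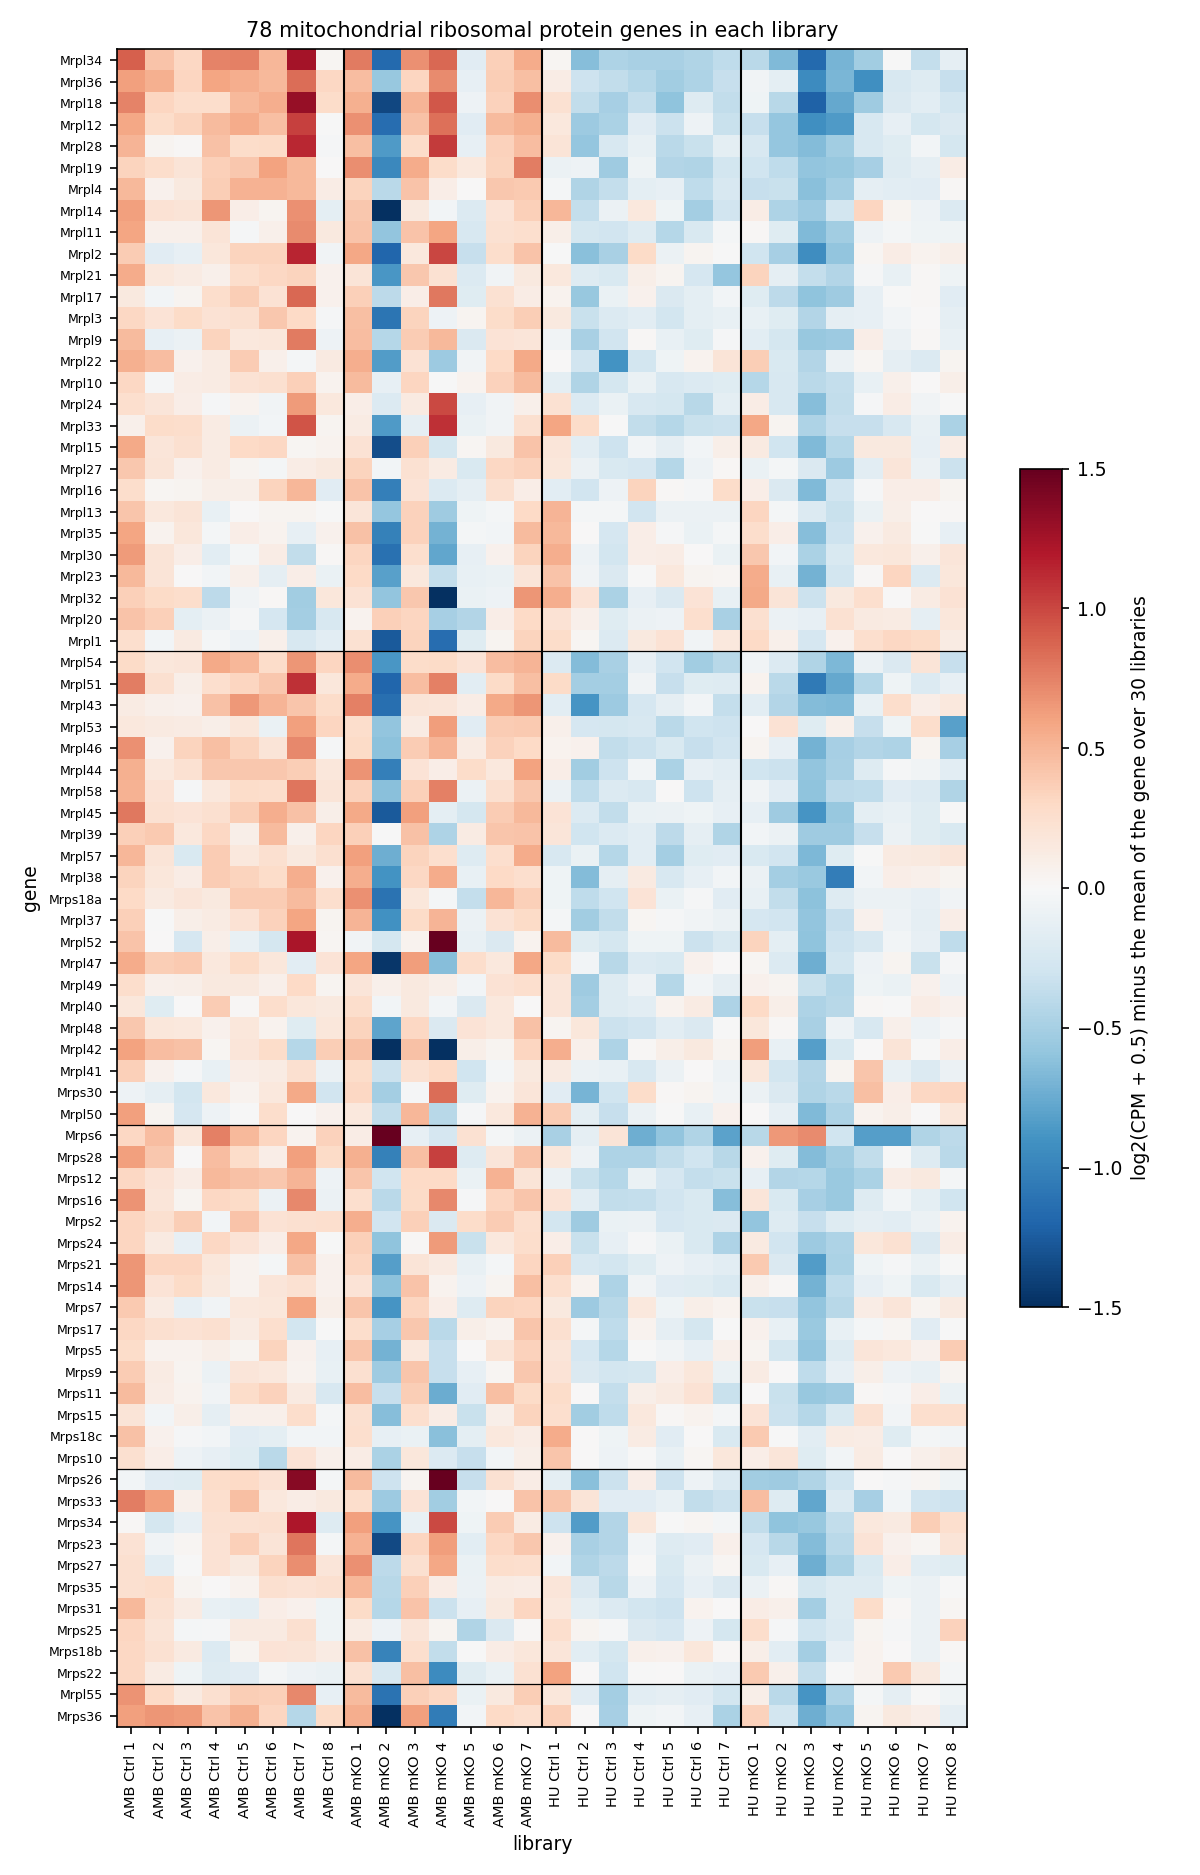
Log2(CPM + 0.5) of each of the 78 genes (y axis, ordered as in the plot of unloading changes) in each library (x axis), minus the mean of the gene over 30 libraries; red is above and blue below the mean, with colours capped at 1.5 log2 units. Vertical lines separate the groups and horizontal lines the subunit classes; AMB mKO 2 and HU mKO 3 are the bluest columns.

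The titles carry a letter a, b or c that the labels do not explain, and each letter occurs in every group. Within letters the median member change with unloading in Ctrl muscle was -0.32, -0.39 and -0.37 log2 units for a, b and c. In mKO muscle it was -0.25, -0.32 and -0.07, and -0.53 for c without AMB mKO replicate 2, which leaves 1 ambulatory library. Within sexes it was -0.32 in female and -0.42 in male Ctrl mice, and -0.04 in female and -0.31 in male mKO mice. The female mKO value rests on 2 ambulatory libraries and was -0.57 without replicate 2. For genotype in ambulatory muscle the medians were -0.20, 0.07 and -0.41 log2 units by letter, the last being 0.09 without AMB mKO replicate 2, so the sign was not the same in all letters.

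The unloading changes were related to base composition and length of the transcripts. Across the 78 members the Spearman correlation of GC content with the log2 change was -0.459 in Ctrl and -0.399 in mKO muscle, and over 16492 genes tested with a transcript model it was -0.343 and -0.312. The members' median GC content, 49.8%, was near the 49.1% of all these genes. Of the 39 members above their median GC content 17 fell in Ctrl muscle, with a median of -0.46, and of the other 39 it was 9, with a median of -0.32 log2 units. After correction of each library for its GC trend, added after this was seen, 27 members were called lower in Ctrl (median -0.36) but 5 in mKO (median -0.22). Shorter members had the more negative changes, with a Spearman correlation of exon length and log2 change of 0.445 in Ctrl and 0.317 in mKO muscle, against 0.0671 and 0.0268 over all genes with a model. The part of GC content and length in the falls was not tested further.

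Partners of the mitochondrial ribosome gave the following counts in the same fit. Over all genes tested 5.74% were called lower in Ctrl and 4.75% in mKO muscle, and 5.37% and 5.3% higher. For these and the lists that follow, a single call in a short list is not a result about that list. Of 5 further ribosome subunits with other symbols 1 fell in each genotype, Aurkaip1 of the small subunit (-0.49 ± 0.11 in Ctrl, adjusted p = 0.00441, and -0.38 ± 0.11 log2 units in mKO, adjusted p = 0.0285). Of 13 translation factors 3 fell in Ctrl and 4 in mKO. Tufm, which delivers aminoacyl-tRNA, went from 49.9, 72.2 and 115 CPM in AMB Ctrl to 25.5, 35.9 and 43.2 CPM in HU Ctrl, without overlap. It fell by 1.05 ± 0.20 log2 units (adjusted p = 0.00135) in Ctrl and by 0.74 ± 0.21 in mKO muscle. Tsfm, the exchange factor of Tufm, fell by 0.78 ± 0.20 and 0.65 ± 0.21, and Taco1, an activator of Co1 translation, by 1.01 ± 0.21 and 0.85 ± 0.22 log2 units. The recycling factor Mrrf fell in mKO by 0.35 ± 0.09 and stood at -0.26 ± 0.09 in Ctrl, where it did not pass.

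Of 20 assembly factors and RNA-modifying enzymes 3 fell in Ctrl, the RNA methyltransferases Nsun4 (-0.51 ± 0.13), Mrm1 (-0.78 ± 0.23) and Mrm3 (-0.53 ± 0.17 log2 units), and 1 in mKO, Mrm1 (-1.29 ± 0.23). Of 20 mitochondrial aminoacyl-tRNA synthetases 3 fell in each genotype, with Aars2 called in both (-0.60 ± 0.15 and -0.47 ± 0.15 log2 units). Of 20 genes of mitochondrial DNA transcription and RNA stability 1 fell in Ctrl, the helicase Supv3l1 (-0.46 ± 0.12), and none in mKO, where 4 had an unadjusted p under 0.05. Of 13 quality-control genes 3 fell in each genotype, with the protease Clpp (-0.39 ± 0.10 and -0.32 ± 0.10) and Phb1 (-0.53 ± 0.14 and -0.47 ± 0.15 log2 units) in both.

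Of 13 mRNAs of mitochondrial DNA, which these ribosomes translate, 1 fell in Ctrl, mt-Nd6 (-1.07 ± 0.33 log2 units, adjusted p = 0.0319), and none in mKO, with medians of -0.20 and 0.19. The ribosomal RNAs mt-Rnr1 and mt-Rnr2 did not pass in either genotype, and the method of ribosomal RNA removal is not given in the sources used here. Nuclear genes of the respiratory chain and ATP synthase had 23 of 74 lower in Ctrl with a median of -0.55 log2 units, and 2 of 74 in mKO with a median of -0.30. Among 15 regulators of mitochondrial gene expression 5 fell in Ctrl, among them Ppargc1a (-1.62 ± 0.46, adjusted p = 0.0232), Ppara (-1.28 ± 0.30) and Perm1 (-1.39 ± 0.37), and 1 rose, Gabpb2 (0.38 ± 0.10 log2 units). In mKO Perm1 fell (-1.14 ± 0.37) and Ppard rose (0.48 ± 0.16 log2 units). Of 81 cytosolic ribosomal proteins 7 rose and none fell in Ctrl muscle (median 0.20), and 17 rose and none fell in mKO muscle (median 0.31 log2 units).

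**Figure D5:**
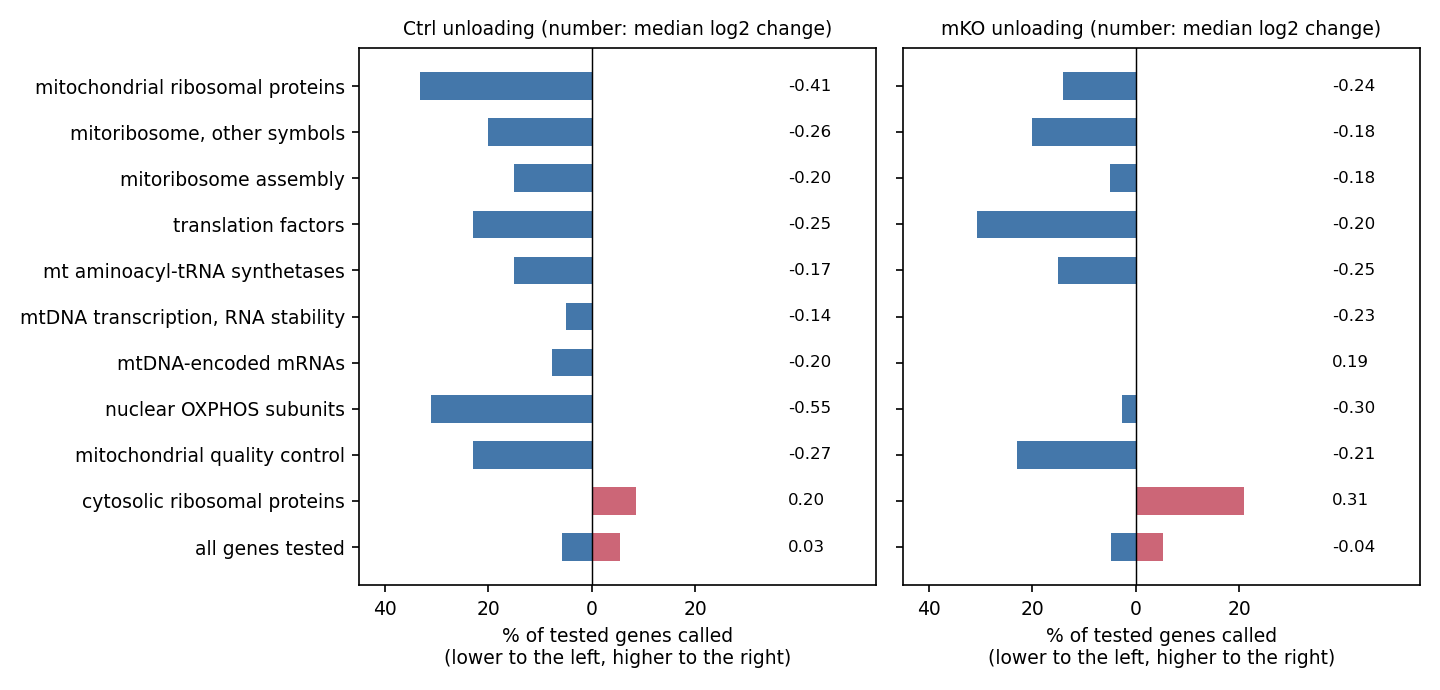
Percent of the tested genes of each list (y axis) called lower (bars to the left) and higher (bars to the right) with unloading (x axis, percent of tested genes), in Ctrl (left) and mKO (right) muscle, with the list's median log2 change at the right. The mitochondrial ribosomal proteins have 33.3% called lower in Ctrl and 14.1% in mKO, and all genes tested 5.74% and 4.75%.

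Some markers of fibre types and other cells moved with unloading too. Over all genes tested 5.74% were called lower and 5.37% higher in Ctrl muscle, and 4.75% and 5.3% in mKO muscle. A called marker does not stand for its whole list. In Ctrl muscle 3 of 10 endothelial markers fell, Kdr (-1.07 ± 0.17), Eng (-0.81 ± 0.15) and Tie1 (-0.72 ± 0.18), with 8 of the 10 changes negative. The summed level of the 10 ran from 523 to 815 CPM in AMB Ctrl and 435 to 602 CPM in HU Ctrl. Of 9 pericyte and smooth-muscle markers 4 fell (8 of the 9 changes were negative), with sums of 686 to 894 and 617 to 910 CPM. Of 12 slow-fibre markers edgeR called none (5 with an unadjusted p under 0.05), with sums of 18946 to 45362 CPM in AMB Ctrl and 12122 to 31566 CPM in HU Ctrl. Of 14 fast-fibre markers 3 rose and 1 fell, the last being Myh2 (-2.64 ± 0.60 log2 units). Of 8 fibro-adipogenic markers 1 fell, Col1a1 (-2.74 ± 0.84), while 5 of the 8 changes were positive (median 0.12 log2 units). The sums were 740 to 6343 CPM in AMB Ctrl and 579 to 2962 CPM in HU Ctrl. Of 8 tenocyte markers 1 fell, Scx (-1.81 ± 0.46 log2 units), while 3 of the 8 changes were positive, with sums of 191 to 2429 and 103 to 2900 CPM. No adipocyte, macrophage, Schwann or satellite-cell marker was called by edgeR in Ctrl muscle, where 2 satellite-cell markers and none of the others had an unadjusted p under 0.05. Changes were positive in 1 of 9 adipocyte, 8 of 10 macrophage, 3 of 8 Schwann and 1 of 6 satellite-cell markers. In mKO muscle 1 of 10 endothelial markers fell, Kdr (-0.85 ± 0.17), while 5 of the 10 changes were positive. There 2 of 8 fibro-adipogenic markers fell, Col1a1 (-3.92 ± 0.91) and Ly6a (-0.58 ± 0.19), and 7 of the 8 changes were negative. Among 8 tenocyte markers 1 fell, Scx (-1.61 ± 0.48 log2 units), and all 8 changes were negative. The fibro-adipogenic sum ran from 682 to 13865 CPM in AMB mKO and 539 to 1357 CPM in HU mKO, and the tenocyte sum from 60.1 to 2873 and 108 to 1441 CPM. Of the fast-fibre markers 3 rose and Myh2 fell (-2.48 ± 0.59 log2 units). None of 10 macrophage markers was called by edgeR, although all were negative and 3 had an unadjusted p under 0.05. None of 12 slow-fibre markers was called (10 negative, 2 with an unadjusted p under 0.05). The same held for 9 pericyte and smooth-muscle markers (4 negative, 3 with an unadjusted p under 0.05). No adipocyte marker of 9 was called (8 negative, 1 with an unadjusted p under 0.05), with sums of 196 to 10474 CPM in AMB mKO and 123 to 2615 CPM in HU mKO. The part of fibre type and cell mixture in the falls of the ribosomal proteins was not tested.

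Promoter sequences are shown because 26 of these genes fell together in control muscle. RefSeq (GRCm38.p6) gave 75 windows, from 250 bases before to 50 bases after the start, for 69 of the 78 members. They were searched on both strands for 3 cores of factors known to act on nuclear genes of mitochondria: CCGGAAG for ETS factors such as GABP, GCATGCG for NRF1 and ATGGCGG for YY1. The ETS core was in 34.7% of the members' windows, against 8.86% of all 32851 windows of the table and 15.9% of the 14191 windows of genes tested. The YY1 core was in 17.3%, against 4.05% and 7.24%, and the NRF1 core in 10.7%, against 3.58% and 5.74%. No member window had different cores overlapping. At least 1 core was found in 13 of the 21 members with a window that fell in Ctrl muscle and in 24 of the 48 others. These are matches of letters and not known binding sites.

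The first 4 stretches are the 250 bases before the start, the remaining 2 are 30 bases around a core just past the start, all read 5′ to 3′ along the gene, and capitals mark the core. Mrpl34 (chr8:71464676-71464925 (+ strand)) has an ETS core 37 bases before the start. Mrpl10 (chr11:97041332-97041581 (+ strand)) has NRF1 cores on both strands that overlap as a palindrome. Mrpl36 (chr13:73330759-73331008 (+ strand)), which fell, and Mrpl1 (chr5:96209865-96210114 (+ strand)), which did not pass, hold none of the cores in their windows. Mrps12 (chr7:28741802-28741831 (- strand)) has an ETS core and Mrps2 (chr2:28468084-28468113 (+ strand)) a YY1 core on the opposite strand. They were chosen after the changes and matches were seen.
Mrpl34: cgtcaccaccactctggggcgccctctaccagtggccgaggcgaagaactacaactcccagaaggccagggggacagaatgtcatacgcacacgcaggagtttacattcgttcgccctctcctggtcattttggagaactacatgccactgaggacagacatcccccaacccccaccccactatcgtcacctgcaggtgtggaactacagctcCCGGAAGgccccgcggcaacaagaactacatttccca
Mrpl10: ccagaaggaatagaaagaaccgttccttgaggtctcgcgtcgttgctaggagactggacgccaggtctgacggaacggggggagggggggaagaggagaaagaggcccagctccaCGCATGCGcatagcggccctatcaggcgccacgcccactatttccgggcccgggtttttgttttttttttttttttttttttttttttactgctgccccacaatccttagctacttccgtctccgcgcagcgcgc
Mrpl36: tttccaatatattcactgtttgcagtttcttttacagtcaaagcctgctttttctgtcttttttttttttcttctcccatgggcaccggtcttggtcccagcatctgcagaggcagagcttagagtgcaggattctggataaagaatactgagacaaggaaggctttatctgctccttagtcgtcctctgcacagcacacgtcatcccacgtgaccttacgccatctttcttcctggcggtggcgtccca
Mrpl1: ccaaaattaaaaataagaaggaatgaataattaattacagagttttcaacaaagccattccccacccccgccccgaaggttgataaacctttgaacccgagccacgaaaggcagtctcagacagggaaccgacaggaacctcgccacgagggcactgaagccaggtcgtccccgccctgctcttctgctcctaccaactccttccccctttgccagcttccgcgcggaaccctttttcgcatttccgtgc
Mrps12: aaggaggaaccCCGGAAGgggctggaggta
Mrps2: tgtccacgcgcCCGCCATggcgcccgctcc

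Some of these promoters are shared with a gene that reads in the opposite direction. The windows of 24 members overlapped that of a gene on the other strand, 22 of which are not members, and 19 of these partners were tested. None of the 19 partners was called with unloading in Ctrl muscle by edgeR (4 with an unadjusted p under 0.05). Their smallest adjusted p was 0.0719, for Ndufb5, which faces Mrpl47. Over all genes tested 11.1% were called, 5.74% lower. Of the members that face these partners 6 fell, where 33.3% of all 78 members fell. With so few genes both counts are near those shares, and neither is particular to shared promoters. The partners' median was -0.04 and that of the members facing them -0.34 log2 units. Mrpl18 fell by 0.90 and its partner Tcp1, a subunit of the cytosolic chaperonin, stood at 0.10 log2 units. Mrpl49 fell by 0.32 and its partner Fau, which encodes a cytosolic ribosomal protein, stood at 0.18. Mrps12 fell by 0.61 and Sars2, the mitochondrial seryl-tRNA synthetase that it faces, was at -0.43 log2 units (adjusted p = 0.0987). Mrpl43 fell by 0.68 and Twnk, the mitochondrial DNA helicase, was at -0.44 (adjusted p = 0.217). In the 1 pair made of members, Mrpl46 fell by 0.61 and Mrps11, which did not pass, stood at -0.16 log2 units, and their exons overlap. In all, 33 of the 78 members have exons that overlap another gene, 28 on the opposite strand and 8 on the same strand. The kit marks strand, but with the counting's strand setting not given, reads of such neighbours may not be fully separated.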

How the data were processed

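RNA-seq was measured in 30 libraries. The authors deposited raw read counts per gene for 56980 genes, and per the submitters' processing notes the tools were STAR 2.7.9a, featureCounts 1.6.3, DESeq2 1.34.0 and cutadapt 1.16, with GRCm39 and mm39 as builds. Neither the annotation release nor the strand setting of counting is given in the sources used here. The treatment and extraction texts of the labels describe other systems (metformin, bed rest, myotubes) and were not used. Groups and sexes came from the labels.

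Counts were tested with edgeR 4.0.16 (quasi-likelihood test, TMM scaling, filterByExpr, group and sex as terms, all 30 libraries sharing 1 estimate of spread, R 4.3.3), with Benjamini-Hochberg adjustment over 16932 genes and a threshold of 0.05. CPM are TMM-normalised. A fold change in the text comes from the fit, and its SE is the log2 change divided by the square root of F. The fit was tested on simulated data. Total counts of about 12083400 to 20895300 per library limit precision mainly for Mrpl53.

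Alternatives were DESeq2 1.42.0, limma voom 3.58.1 with library weights, other scaling and filters, other terms and library subsets, and leaving out each library. Total-count scaling, the GC correction and both further removals of ambulatory libraries were chosen after seeing the data.

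Members and gene lists were chosen with earlier results of these data known. Named members were Prkaa1 and Prkaa2 first, then per comparison all called members if 16 or fewer, otherwise the 8 with the smallest p, the 3 largest changes each way, the 4 smallest p where none was called, and fixed sets (Mrps18a to Mrps18c, the stalk, the disease genes). In the other lists up to 3 genes with the smallest p were to be named. Other called members, and the genes in the paragraph on libraries, were named after their values were seen. Of 15 translation factor symbols 13 matched. Exon lengths, GC content and overlaps are from GENCODE M21 (GRCm38), promoters from RefSeq (GRCm38.p6), matched by symbol, and no coordinates of the counts' own build were used.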

Additional observations from a re-analysis of the deposited data

Results flagged for a closer look

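Among 72 groups of values examined, 4 held a library whose gap to the nearest other library was large for the group's range by Dixon's criterion at the 95% level. Chance flags about 1 in 20 groups. AMB mKO replicate 2 had 36.19 CPM of Prkaa1, where the other 6 libraries of its group had 8.21 to 17.9 CPM. The same library had 7.6 CPM of Mrpl46 against 13.1 to 17.2 CPM in the others. HU Ctrl replicate 1 had 14.08 CPM of Mrpl34 against 8.64 to 10.5 CPM in the other 6 libraries, and 12.91 CPM of Mrpl36 against 8.12 to 9.50 CPM.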

How the results depend on the processing

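No paired analysis was possible because the labels give no replicate numbers that groups share. The median change of the members kept its sign under every alternative for unloading in both genotypes. The number of members called lower in Ctrl muscle, 26 as reported, was 45 with limma voom, 41 with the title letter as a term, 44 with the compared groups only, 41 without 3 adipocyte-rich libraries, 44 with the letter and without AMB mKO replicate 2, and 13 with total-count scaling. In mKO muscle the 11 became 31 with limma voom, 18 with sex left out, 28 without the adipocyte-rich libraries, 30 with the letter and without AMB mKO replicate 2, 34 without 3 ambulatory libraries that stand apart, 4 with no low-count filter, 5 after GC correction and 0 with the compared groups only, where 22 had an unadjusted p under 0.05. Leaving out each library gave 17 to 40 in Ctrl and 2 to 32 in mKO. The cause was not tested. The share of all genes called, or with an unadjusted p under 0.05, is not given for each alternative, here or above. These counts alone do not tell a change in the members from a change in calls over all genes.

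Values near 0 changed sign. Mrps18c in Ctrl muscle was -0.001981 with size factors, -0.003155 with DESeq2, -0.02825 with voom, -0.02813 with the letter, -0.007646 without the adipocyte-rich libraries, -0.01462 with the letter and AMB mKO replicate 2 dropped, -0.07883 after GC correction and -0.009835 without the 3 ambulatory libraries (-0.08062 to 0.08349 leaving out each library). Mrps22 was -0.00955 with the letter (-0.07222 to 0.09678) and Mrpl1 -0.08206 after GC correction. For genotype in ambulatory muscle Mrps6 was -0.3199 with voom, -0.4144 without the adipocyte-rich libraries, -0.1407 with letter and dropped library and -0.3107 without the 3 libraries (-0.3143 to 0.3723). Mrpl20 was -0.001942, -0.001066 and -0.006844 in the last 3 of these (-1.85e-05 to 0.1904), and Mrpl10 -0.03462 with the letter (-0.02035 to 0.1145). In mKO muscle Mrps18b was 0.01195 with the letter, 0.005229 with total counts and 0.02452 after GC correction (-0.1871 to 0.09205), Mrpl32 -0.00091 with voom and -0.0485 without the 3 libraries, and Mrpl30 -0.06609 without them. The interaction of Mrps6 was 0.4162 with voom, 0.09596 with sex left out, 0.2633 without the adipocyte-rich libraries, 0.365 with letter and dropped library and 0.5546 without the 3 (-0.2619 to 0.55), and that of Mrps11 0.0008286 with the letter (-0.1907 to 0.0417). The cause was not tested.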

Other observations

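Mrps26 and Mrps34 showed the same pair of libraries as Mrpl52. Mrps26 stood at 53.3 CPM in AMB Ctrl replicate 7 and 59.0 CPM in AMB mKO replicate 4, where the other ambulatory libraries had 15.95 to 28.6 CPM, and Mrps34 stood at 64.7 and 55.2 CPM. Across the 78 members the Spearman correlation of GC content with a library's deviation from its group median was 0.466 in AMB Ctrl replicate 7 and 0.390 in AMB mKO replicate 4, the upper end of a range that reached down to -0.508 in AMB mKO replicate 3. These describe genes within 1 library, and the genes were picked after their values were seen.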
